A study of Mus musculus with 16 samples.

Results

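The inflammatory interleukins of tumour myeloid cells, together with TNF, were followed here at the level of the transcript in cells that had been in a tumour for different lengths of time. The genes were Il1a, Il1b, Il1rn, Il6, Osm, Il15, Tnf and Il10, picked out by symbol and chosen with earlier results of these data known. They make 8 of the 24421 genes in the deposited count tables. All 8 have a row there, and 7 of them were among the 9642 genes with enough counts for a test; Il1a was not. The libraries came from viable cells, positive for CD45, CD11b and Kaede and negative for TER119 and NK1.1, that were sorted from subcutaneous MC38-Ova tumours, a mouse colon adenocarcinoma line that carries ovalbumin, grown in female Kaede transgenic C57BL/6 mice without any drug treatment. Kaede is a fluorescent protein that violet light switches from green to red. Light was given once through the skin over the tumour, so that Kaede-red cells are those that were in the tumour at that moment and Kaede-green cells are those that entered afterwards. The time since photoconversion is thus the least that a Kaede-red cell and the most that a Kaede-green cell can have spent there. There were 4 libraries in each of 4 groups, which were Kaede-green at 24h (MG24), Kaede-red at 24h (MR24), Kaede-green at 72h (MG72) and Kaede-red at 72h (MR72) after photoconversion. All 4 groups share the mouse strain, the tumour line and the batch label. According to the study's methods, tumours were labelled at a fixed day after injection. The 72h tumours had therefore grown for longer than the 24h ones, and time since photoconversion cannot be told apart from the age of the tumour. The gate takes every CD11b+ cell that lacks NK1.1, which is wider than the word macrophages that the labels also use.

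IL-1α and IL-1β are the agonists of the IL-1 receptor, and IL-1β is made as an inactive precursor that inflammasome caspases cut. IL-1 receptor antagonist, the product of Il1rn, occupies the same receptor without signalling. IL-6 and oncostatin M signal through the shared chain gp130 to STAT3, IL-15 is presented to lymphocytes on the α chain of its own receptor, TNF is shed from the membrane by the protease ADAM17, and IL-10 restrains the production of most of the others. Transcription of many of these genes is switched on by NF-κB, and their mRNAs are short-lived because proteins of the ZFP36 family bind AUUUA elements in the 3′ untranslated region.

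In the counts, Il1b, Il6, Osm and Il15 were lower in Kaede-red than in Kaede-green cells, Tnf was higher, and neither Il1rn nor Il10 passed the test. Il6 differed most, by 10.1-fold, and Tnf least among the genes that passed, by 1.65-fold. The share of ribosomal RNA in a library also differed between the colours. With that share as a covariate, Osm and Il15 still passed, while Il1b, Il6 and Tnf kept their direction without passing. The ratio of antagonist to agonist transcript, Il1rn to Il1b, was 1.79-fold higher in Kaede-red cells within a library. That is no more than a gene at the median of all genes tested would show over Il1b. No member passed the test for a change between 24h and 72h.

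The genes lie on 6 chromosomes of mm10 (positions from GENCODE vM21). Il1a (chr2:129299610-129309972, minus strand) and Il1b (chr2:129364570-129371139, minus strand) are neighbours, 54597 bases apart, while Il1rn (chr2:24336853-24351494, plus strand) lies 105013075 bases from Il1b. Il6 is at chr5:30013114-30019981 (plus), Osm at chr11:4236420-4241026 (plus) and Il15 at chr8:82331632-82403222 (minus). Tnf is at chr17:35199381-35202007 (minus) and Il10 at chr1:131019845-131024974 (plus). Il1b overlaps the antisense gene Il1bos, and Il1a overlaps Gm14023 on the opposite strand. The strand setting of the counting is not given in the sources used here. Il1bos held 0 to 14 counts per library and Gm14023 0 or 1. These counts do not show how many reads in the overlaps, if any, were assigned to neither gene.

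The windows of 250 bases before the transcription start are shown for 3 of the members that passed the test, because Il6 and Il1b fell while Tnf rose (RefSeq, GRCm38.p6, each read 5′ to 3′ on the strand of its gene). They cover chr5:30012864-30013113 for Il6, chr2:129371140-129371389 for Il1b and chr17:35202008-35202257 for Tnf. Capitals mark matches to an NF-κB motif (GGG and TTTCC with any 2 bases between them, both strands) or to a TATA box (TATAAA).

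Il6: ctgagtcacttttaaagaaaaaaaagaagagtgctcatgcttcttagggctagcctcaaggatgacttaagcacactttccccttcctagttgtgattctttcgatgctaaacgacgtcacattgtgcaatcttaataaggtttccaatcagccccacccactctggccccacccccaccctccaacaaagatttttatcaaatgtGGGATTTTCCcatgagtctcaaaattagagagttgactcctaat

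Il1b: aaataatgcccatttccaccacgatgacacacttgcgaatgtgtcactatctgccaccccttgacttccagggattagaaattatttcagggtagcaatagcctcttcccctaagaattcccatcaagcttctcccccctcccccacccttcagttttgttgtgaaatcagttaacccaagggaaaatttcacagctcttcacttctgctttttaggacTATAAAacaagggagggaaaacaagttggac

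Tnf: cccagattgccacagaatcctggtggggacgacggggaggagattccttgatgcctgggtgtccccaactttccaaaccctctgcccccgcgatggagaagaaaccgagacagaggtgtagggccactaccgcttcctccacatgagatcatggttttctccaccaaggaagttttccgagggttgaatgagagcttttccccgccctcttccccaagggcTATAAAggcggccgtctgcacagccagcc

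The Il6 window holds the NF-κB letters 44 bases before the start and no TATAAA. The Il1b and Tnf windows hold TATAAA, at 31 and 29 bases before the start, and neither holds the NF-κB letters. Over 32851 windows of this length, 1.41% held the NF-κB letters and 7.59% held TATAAA. An AP-1 motif (TGANTCA, in 6.75% of windows) matched in Il6 at 249 bases before the start and in neither of the other two. A cAMP response element (the full palindrome, in 1.55% of windows) matched in no window of a member. The pattern for NF-κB was chosen after a looser one had matched too many windows. Windows were at hand for 5 of the 8 members. Among those not shown, a window of Il1rn, which did not pass the test, also held the NF-κB letters, 51 bases before the start. Another window of Il1rn held the AP-1 motif at 141 bases, and its remaining window held none of the motifs. The Il1a window held the AP-1 motif at 12 and TATAAA at 32 bases before the start, and no NF-κB letters.

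The 3′ untranslated regions of the members that passed the test carry the ATTTA element in different number. From each, 30 bases that hold the densest run of elements are printed below with the elements in capitals, to show the element in the members that fell and in the one that rose.

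Il6: tttaattatttttaATTTAttgataATTTA

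Il1b: caaccacttacctATTTATTTAtgtATTTA

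Osm: aatccgttttatATTTAtaaggcctATTTA

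Il15: acttatttttgcttgcttatttttaATTTA

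Tnf: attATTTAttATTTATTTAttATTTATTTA

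Tnf carries 8 ATTTA elements in 764 bases (10.5 per kilobase) and Il6 carries 6 in 427 bases (14.1 per kilobase). The gene that rose and the gene that fell most were thus the densest of the members, against a median of 1.2 per kilobase over 20501 genes. Osm has 6 elements (5.90 per kilobase), Il1b has 4 (8.71 per kilobase), Il15 has 1 (3.55 per kilobase) and Il10 has 6 (8.50 per kilobase). Il1rn has none in 1864 bases. The longer nonamer TTATTTATT was found in Tnf alone among the members, 5 times, and in 7.20% of all genes.

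Total counts per library ran from 3216860 to 15423100. The ribosomal RNA gene Rn45s took 79.0 to 93.4% of them in Kaede-green and 55.8 to 84.9% in Kaede-red libraries, which left 468092 to 912689 and 758192 to 5472480 counts for all other genes. Levels below are TMM-scaled CPM (counts relative to a scaled library size), in which 1 count is worth 0.243 to 0.558 CPM in a Kaede-green and 0.0211 to 0.181 CPM in a Kaede-red library. A low level is therefore read more finely in Kaede-red cells. The libraries of a group come from independent mice, and libraries are the n of every test. In bulk RNA, fewer cells that make a transcript and less transcript per cell cannot be told apart.

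Markers of the sorted cells were present, and their balance differed between the colours. All 10 macrophage markers, such as Adgre1, C1qa and Mrc1, were higher in Kaede-red cells, with a summed level of 238 to 337 CPM in MG24, 458 to 804 CPM in MR24, 266 to 327 CPM in MG72 and 822 to 898 CPM in MR72. Of 7 monocyte markers, 3 were lower in Kaede-red cells over both times (Plac8, Chil3, Vcan) and 4 did not pass. This list changed with time. At 24h 3 were lower, with a median log2 fold change of -0.69 over the list. At 72h 1 was lower, and the median was 0.36. Within Kaede-red cells 3 were higher at 72h than at 24h, and 1 passed the test for a change of the colour difference. The monocyte sum was 1055 to 1678 CPM in MG24, 554 to 657 CPM in MR24, 785 to 1192 CPM in MG72 and 604 to 826 CPM in MR72. Neutrophil markers were low but moved with colour at 72h, with a sum over 9 genes of 8.603 to 12.3 CPM in MG24, 9.07 to 14.5 CPM in MR24, 10.4 to 12.2 CPM in MG72 and 17.8 to 23.3 CPM in MR72. Of the 2 that were tested, Csf3r was higher in Kaede-red cells (0.67 over both times, adjusted p = 0.00566), and Mmp8 did not pass. The 24h value of Csf3r was 0.22 (adjusted p = 0.698), and its 72h value was 1.12 (adjusted p = 9.41e-04). Of the others, S100a8, S100a9 and Cxcr2 had group means of at most 1.15 CPM, while Ngp was at 0 in all libraries and Csf3r, which monocytes also express, made up most of the sum. Mast cell and basophil markers were at 0 in all Kaede-green libraries and at most 1.29 CPM in Kaede-red ones, and dendritic cell markers summed to at most 6.51 CPM. Markers of T and NK cells, B cells and tumour epithelial cells summed to at most 5.73, 2.45 and 3.68 CPM, and those of erythroid cells to at most 11.3 CPM. Endothelial markers summed to 9.77 to 19.0 CPM in Kaede-green and 17.8 to 36.8 CPM in Kaede-red libraries, with 2 of 3 tested genes higher and 1 lower. The part of these shifts in the cytokine differences was not tested.

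In CPM, Il1rn stood above Il1b in MR72, and Il1b was the highest of the members in MG24, MR24 and MG72. Its level was 259.8, 240.5, 305 and 225 CPM in the 4 MG24 libraries and 126, 139, 125 and 134 CPM in the MR24 libraries. At 72h it was 163, 236, 191 and 172 CPM in MG72 and 98.2, 120.4, 111 and 86.4 CPM in MR72. The highest Kaede-red value did not reach the lowest Kaede-green one. The log2 fold change of Kaede-red against Kaede-green was -0.93 over both times (SE 0.13, adjusted p = 3.68e-06 in edgeR's quasi-likelihood test), -0.98 at 24h (adjusted p = 9.12e-04) and, 72h after photoconversion, -0.88 (adjusted p = 0.00112). Ordered by level the groups run MG24, MG72, MR24 and MR72, and no pair of neighbours in that order differed past the threshold. The difference of MG24 from MG72 was 0.43 on the log2 scale in size (adjusted p = 0.505), that of MG72 from MR24 was 0.54 (adjusted p = 0.105) and that of MR24 from MR72 was 0.33 (adjusted p = 0.288).

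**Figure D1:**
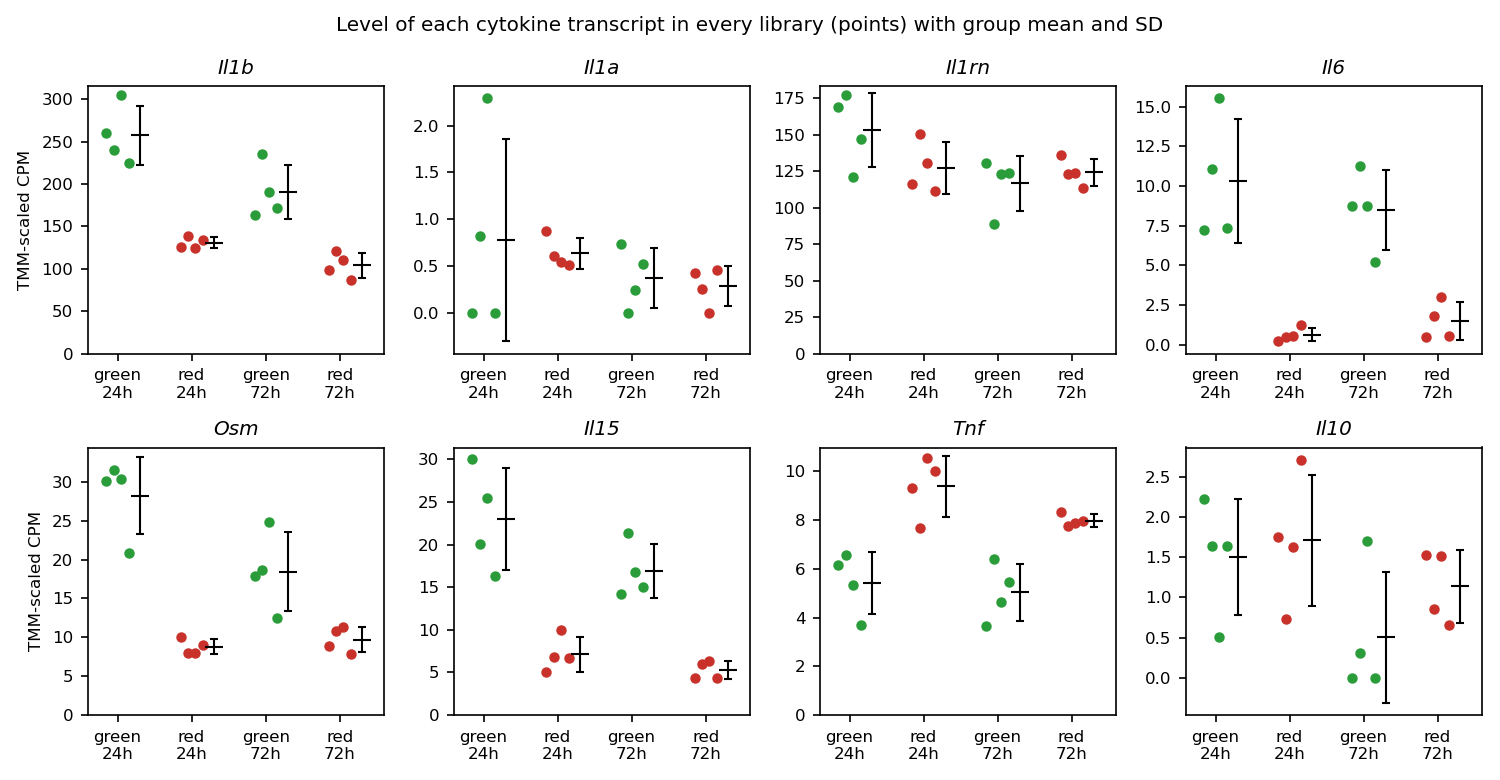
TMM-scaled CPM (linear axis, a separate scale for each gene) of the 8 members in each of the 16 libraries; each point is a library, green for Kaede-green and red for Kaede-red, and the bar beside it gives the group mean and SD (n = 4). Red points lie below all green points for Il1b, Il6, Osm and Il15 and above them for Tnf, while Il1rn, Il10 and Il1a overlap.

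Il1rn did not follow Il1b. It was at 169, 177, 121 and 147 CPM in MG24 and at 116, 151, 130.3 and 112 CPM in MR24. It was at 130.5, 88.5, 123 and 124 CPM in MG72 and at 136, 123, 124 and 113 CPM in MR72. The colours overlapped, and the log2 fold change was -0.09 over both times with a 95% interval of -0.36 to 0.18 (adjusted p = 0.684), which does not reach the size of the difference in Il1b. Il1a was barely detected. Its raw counts were 0, 2, 9 and 0 in MG24, 10, 5, 3 and 8 in MR24, 2, 0, 1 and 2 in MG72 and 11, 10, 0 and 22 in MR72. Most of these are worth less than 1 CPM, and without the filter on low counts its log2 fold change was -0.21 with an SE of 0.73, so that no difference was detectable at this depth.

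The ratio of 2 transcripts within a library does not depend on how libraries are scaled. Il1rn over Il1b averaged 0.594 (geometric mean) in MG24, 0.611 in MG72, 0.966 in MR24 and 1.20 in MR72. All 8 Kaede-red libraries, from 0.835 to 1.39, lay above all 8 Kaede-green ones, from 0.376 to 0.799. The ratio was 1.79-fold higher in Kaede-red cells (exact two-sided permutation test with labels exchanged within times, p = 0.000408, which is the smallest that these 4900 relabellings allow, adjusted p = 0.00109 over 8 ratios). On the log2 scale this shift was 0.84, no larger than the 0.98 by which Il1b lay below the median of all genes tested. A gene at that median would thus show at least as large a shift over Il1b. Lengths of exon merged over all annotated isoforms were 1.907 kb for Il1b and 5.535 kb for Il1rn. Per kilobase of that length, Il1b stood higher in every group, at 135 CPM per kilobase against 27.7 for Il1rn in MG24 and 54.5 against 22.4 in MR72. A shorter length for Il1rn would narrow the gap, and the isoforms present were not measured. These values therefore do not settle which of the transcripts was the more abundant.

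Genes of the IL-1 pathway were taken as lists. Of 8 genes of IL-1 processing, 5 were lower and 1 higher in Kaede-red cells over both times, while 2 were lower at 24h and 2 at 72h. The list had a median log2 fold change over both times of -0.60 against 0.06 over all genes tested. Background rates of 10.3% lower and 10% higher apply to this comparison, here and for each list below, since 990 and 969 of 9642 genes passed. In either direction, 7.5% of genes passed at 24h and 16.8% at 72h. Casp1, the caspase that cleaves pro-IL-1β, was lower in every Kaede-red library (log2 fold change -1.16, SE 0.17, adjusted p = 3.67e-06), with group means of 30.8 CPM in MG24, 12.9 CPM in MR24, 28.5 CPM in MG72 and 13.8 CPM in MR72. Casp4 (-0.65), the sensor genes Nlrp3 (-0.63) and Aim2 (-0.68) and the adaptor gene Pycard (-0.57) were lower as well, and Naip2 was higher (0.62). Gsdmd, whose product forms the pore through which IL-1β leaves, had a value of 0.25 (adjusted p = 0.318).

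Of 10 tested genes of IL-1 reception and signalling, 1 was higher and 2 lower over both times, none passed at 24h, and 1 was higher and 1 lower at 72h. Their median log2 fold change over both times was 0.03 against 0.06 over all genes, of which 20.3% passed. The decoy receptor gene Il1r2 was at a mean of 15.2 CPM in MG24, 10.3 CPM in MR24, 15.6 CPM in MG72 and 9.96 CPM in MR72 and was lower in Kaede-red cells (log2 fold change -0.60, adjusted p = 0.0236). The signalling receptor gene Il1r1 averaged at most 0.980 CPM in any group and was not tested, and the accessory chain gene Il1rap did not pass (-0.26, adjusted p = 0.545). Il1rl1, the receptor for IL-33, was lower (-0.72, adjusted p = 0.0495), and Tollip, an inhibitor of IL-1 signalling, was higher (0.57, adjusted p = 0.0493), both close to the threshold. Il18, another cytokine that caspase-1 activates, was lower (-1.38, adjusted p = 4.92e-06, means of 18.0, 5.28, 10.95 and 5.63 CPM in MG24, MR24, MG72 and MR72). Its soluble inhibitor gene Il18bp was higher in Kaede-red cells (0.82, adjusted p = 0.00735).

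Il6 fell most of the members and Osm, the other gp130 ligand, fell less. Il6 was at 7.25, 11.1, 15.5 and 7.36 CPM in MG24 and at 0.264, 0.487, 0.544 and 1.23 CPM in MR24. It was at 8.77, 11.3, 8.76 and 5.202 CPM in MG72 and at 0.509, 1.84, 3.02 and 0.548 CPM in MR72. The highest Kaede-red library stayed below the lowest Kaede-green library. These levels rest on 13 to 61 counts per Kaede-green library and on 3 to 73 counts per Kaede-red library. The fold was 15.3 at 24h (log2 fold change -3.94, SE 0.51, adjusted p = 4.29e-06) and 6.63 at 72h (log2 fold change -2.73, SE 0.45, adjusted p = 5.34e-05). The change of that difference between the times was 1.21 on the log2 scale (SE 0.68, adjusted p = 0.399). The Rn45s share moved with colour, and with it as a covariate the value at 24h was -2.86 (adjusted p = 0.005) and that at 72h was -0.95 (adjusted p = 0.779). In order of level, MG24 and MG72 did not differ past the threshold (adjusted p = 0.879), MG72 and MR72 did, and MR72 and MR24 did not (log2 fold change 0.89, adjusted p = 0.326).

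Fibroblast markers, which a CD45+ gate should remove, were low, and at 72h they were lower in Kaede-red cells, as Il6 was. The sum of 7 such markers was 41.8 to 55.2 CPM in MG24, 20.0 to 38.6 CPM in MR24, 46.1 to 51.5 CPM in MG72 and 12.5 to 19.5 CPM in MR72. Of the 4 that were tested, Col1a1, Col1a2 and Col3a1 were lower in Kaede-red cells over both times and Pdgfra was not past the threshold. None of the 4 passed at 24h, and all 4 were lower at 72h. Lum was at 0.08 CPM or less in group means. The part of these transcripts in the Il6 difference was not tested.

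Osm was at 30.1, 31.5, 30.3 and 20.9 CPM in MG24 and at 10.01, 8.03, 7.98 and 9.05 CPM in MR24. It was at 17.9, 18.6, 24.8 and 12.5 CPM in MG72 and at 8.89, 10.8, 11.3 and 7.79 CPM in MR72. The colours did not overlap, although the lowest MG72 library came close to the highest Kaede-red one. The log2 fold change was -1.68 at 24h (SE 0.23, adjusted p = 9.3e-06) and -0.94 at 72h (SE 0.22, adjusted p = 0.00264). The narrowing between the times, 0.73, did not pass (SE 0.31, adjusted p = 0.252). In green cells the level was lower at 72h by 0.61 on the log2 scale (adjusted p = 0.436), and in red cells the log2 difference between the times was 0.13 (adjusted p = 0.797).

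Of 11 tested receptor and signalling genes of the gp130 ligands, 3 were higher in Kaede-red cells and none lower over both times. Their median log2 fold change was 0.28 against 0.06 over all genes, of which 20.3% passed. Jak1 (0.51, adjusted p = 0.00953), Stat3 (0.48, adjusted p = 0.0452) and the receptor gene Lifr (0.90, adjusted p = 0.0353) rose. Taken by time, Jak1 and Stat3 passed at 72h (0.79, adjusted p = 0.0046, and 0.94, adjusted p = 0.00539) but not at 24h (0.23 and 0.03). Lifr passed at neither time alone. Within Kaede-red cells 5 of the 11 genes were higher at 72h than at 24h and none lower, where 8.68% of all genes passed in either direction. Il6ra, the IL-6 binding chain, had group means of 7.99, 8.50, 8.68 and 17.3 CPM in MG24, MR24, MG72 and MR72, and passed the test at 72h (0.97, adjusted p = 0.0143) but not over both times (0.54, adjusted p = 0.0632). At 24h alone the feedback inhibitor gene Socs1 was lower (-1.02, adjusted p = 0.046). The gp130 gene Il6st had a log2 fold change of -0.00 with an SE of 0.18. Osmr averaged at most 1.35 CPM and was not tested.

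Il15, a growth factor for NK and memory CD8 T cells, was lower in Kaede-red cells by much the same amount at either time. It was at 30.1, 20.1, 25.5 and 16.4 CPM in MG24 and at 5.09, 6.81, 9.98 and 6.66 CPM in MR24. It was at 14.3, 21.4, 16.8 and 15.1 CPM in MG72 and at 4.31, 6.00, 6.35 and 4.401 CPM in MR72. No Kaede-red library reached the lowest Kaede-green one. The log2 fold change was -1.71 at 24h (SE 0.25, adjusted p = 2.92e-05) and -1.70 at 72h (SE 0.24, adjusted p = 7.87e-06), 3.27-fold and 3.25-fold lower, and the change of that difference was 0.01 with an SE of 0.37. The groups run MG24, MG72, MR24 and MR72, as for Il1b, but here MG72 stood above MR24 past the threshold (1.27, adjusted p = 0.00169).

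Il15ra, the chain that presents the cytokine, was also lower in every Kaede-red library (log2 fold change -1.35, SE 0.21, adjusted p = 9.82e-06), with group means of 9.25 CPM in MG24, 3.04 CPM in MR24, 6.93 CPM in MG72 and 3.25 CPM in MR72. The shared γ chain gene Il2rg went the other way (0.54, adjusted p = 0.0119), as did Jak1, and the other 4 of 7 genes of the list did not pass. For the list the median log2 fold change was 0.37 against 0.06 over all genes, of which 20.3% passed. Il2rb, the β chain, averaged at most 1.03 CPM.

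**Figure D2:**
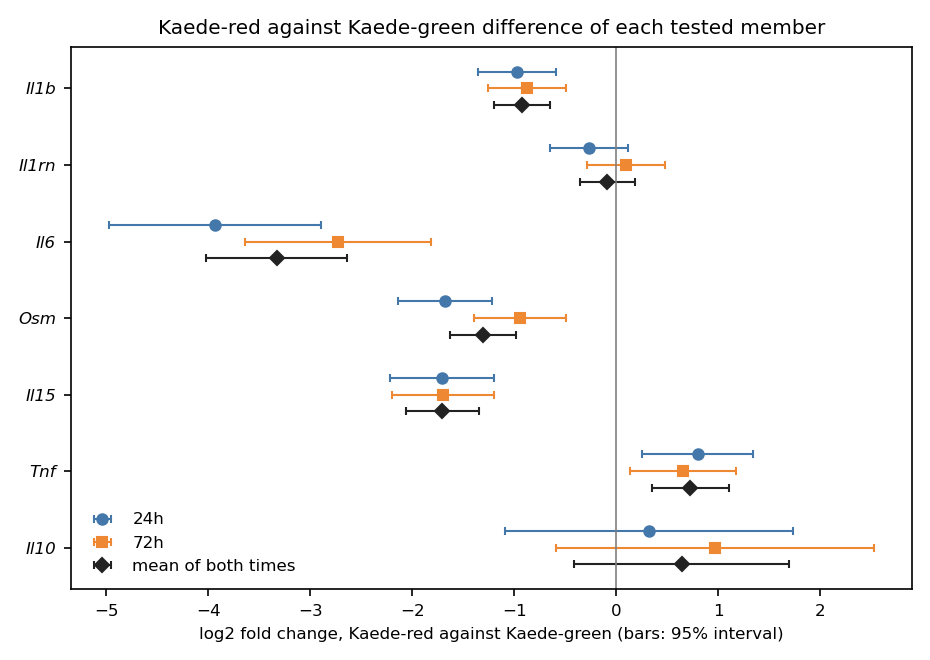
Log2 fold change of Kaede-red against Kaede-green (x axis) for the 7 tested members, at 24h (circles), at 72h (squares) and as the mean of both times (diamonds), with 95% intervals from the fit over all 16 libraries. Il1b, Il6, Osm and Il15 lie left of 0 at each time, Tnf lies right of it, and the intervals of Il1rn and Il10 cross 0.

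Tnf was the only member that passed the test in the other direction. It was at 6.13, 6.55, 5.35 and 3.68 CPM in MG24 and at 9.31, 7.66, 10.5 and 10.02 CPM in MR24. It was at 3.66, 6.41, 4.62 and 5.46 CPM in MG72 and at 8.34, 7.74, 7.86 and 7.94 CPM in MR72. Every Kaede-red library was above every Kaede-green library, on 9 to 21 counts per Kaede-green and 52 to 377 counts per Kaede-red library. Over both times the log2 fold change was 0.72 (SE 0.18, adjusted p = 0.00461). At a single time it was 0.79 (24h, adjusted p = 0.0664) or 0.65 (72h, adjusted p = 0.0742), short of the threshold in edgeR and past it in DESeq2 (adjusted p = 0.0313 and 0.0476). MR24 and MG72 differed (log2 fold change of MG72 against MR24 -0.89, adjusted p = 0.0431), whereas MR24 from MR72 and MG24 from MG72 did not (adjusted p = 0.59 and 0.963).

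The 14 genes of TNF release, reception and signalling had a median log2 fold change of -0.02 over both times, against 0.06 over all genes. Of these 14, 3 were higher in Kaede-red cells and none lower, where 20.3% of all genes passed in either direction. At 24h none passed, and at 72h 3 were higher and Birc2, which encodes an inhibitor of apoptosis protein, was lower (-0.87, adjusted p = 0.00807). Adam17, which sheds TNF, was higher in all Kaede-red libraries (0.78, SE 0.17, adjusted p = 0.000763), with means of 9.07, 13.9, 10.03 and 19.0 CPM in MG24, MR24, MG72 and MR72. The kinase gene Ripk1 (0.72, adjusted p = 0.0027) and the receptor gene Tnfrsf1b (0.48, adjusted p = 0.0362) were higher too, the latter with a value of -0.21 at 24h (adjusted p = 0.677) and of 1.17 at 72h (adjusted p = 0.000522). Tnfrsf1a had a log2 fold change of 0.02 (adjusted p = 0.94), and Tnfaip3 and Nfkbia, feedback inhibitors that NF-κB induces, had values of -0.15 and -0.17 that did not pass.

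Il10 was close to the limit of detection. It was at 2.23, 1.64, 0.510 and 1.64 CPM in MG24 and at 1.76, 0.730, 1.63 and 2.71 CPM in MR24. In MG72 it was at 0, 0.305, 1.70 and 0 CPM on 0 to 7 counts, and in MR72 at 1.53, 0.857, 1.51 and 0.653 CPM. The groups overlapped, and the log2 fold change of 0.64 had a 95% interval of -0.41 to 1.70 (adjusted p = 0.419). It would be 1.79 without the third MG72 library, still short of the threshold (adjusted p = 0.0614), so that at this depth neither a rise nor its absence was detectable. Il10rb (0.63, adjusted p = 0.00165) and Maf, which encodes a transcription factor for Il10 (1.12, adjusted p = 1.75e-06, higher in every Kaede-red library), rose. Jak1 and Stat3 are shared with the gp130 list. Nfil3 fell (-0.74, adjusted p = 4.45e-04), and Il10ra did not pass (-0.10, adjusted p = 0.683). In all, 4 of 10 genes of the list were higher and 1 was lower over both times. Their median log2 fold change was 0.25 against 0.06 over all genes, of which 20.3% passed. At 24h the median of the list was -0.26, with 2 higher and 1 lower, and at 72h it was 0.61, with 4 higher and 0 lower.

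Over both times, 5 of the 7 tested members passed the test, 4 lower and 1 higher, where 20.3% of all tested genes did. All 4 lower members and the higher one also had colours that did not overlap in any of the 16 libraries, which held for 1.74% of genes in the lower and 1.19% in the higher direction. At 24h 4 members passed, all of them lower, where 7.5% of genes passed and 4.28% were lower. At 72h the same 4 passed, where 16.8% of genes passed and 8.76% were lower, but none of them did with the Rn45s share as a covariate (adjusted p = 0.343 for Il1b, 0.779 for Il6, 0.518 for Osm and 0.121 for Il15). Between 24h and 72h in Kaede-green cells no member and 0 of 9642 genes passed, while 3 members and 835 genes had an unadjusted p under 0.05, and DESeq2 also called no member. In Kaede-red cells no member passed although 8.68% of genes did, and none had an unadjusted p under 0.05 in edgeR. Under a stricter filter of 10 counts in each library Il1b passed there (-0.40, adjusted p = 0.0497). None passed for the change of the colour difference with time (0.757% of genes did), where 1 member had an unadjusted p under 0.05, and DESeq2 called no member in either comparison. The share of Rn45s moved with colour. With that share as a covariate, Osm (-1.13, adjusted p = 0.031) and Il15 (-1.29, adjusted p = 0.0182) still passed over both times, Il1b (-0.77, adjusted p = 0.0767), Il6 (-1.90, adjusted p = 0.0638) and Tnf (0.82, adjusted p = 0.21) kept their direction without passing, and the share of all genes that passed was 1.62%.

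Relative to Il1b, the other members shifted in both directions. Of the 8 within-library ratios, 6 passed over both times. All but Il1a over Il1rn have Il1b as the denominator, so the lower Il1b of Kaede-red cells raises each of them. On the log2 scale Il1b lay 0.98 below the median of all genes tested, so a gene at that median would also stand higher over Il1b. How many of all genes would pass such a test was not computed. Tnf over Il1b was 3.09-fold higher in Kaede-red libraries (geometric means 0.0215, 0.0716, 0.0269 and 0.0775 in MG24, MR24, MG72 and MR72, adjusted p = 0.00109, exact permutation test), without overlap. Il6 over Il1b was 5.81-fold lower (0.0391, 0.00463, 0.0442 and 0.0111, adjusted p = 0.00109 by the same test), without overlap. Il6 thus fell beyond the fall of Il1b. Il15 over Il1b was 1.71-fold lower (0.0884, 0.0534, 0.0891 and 0.0505, adjusted p = 0.00163, exact permutation test), with an overlap at the third MR24 library. Il10 over Il1b was 3.31-fold higher (1.73 on the log2 scale, adjusted p = 0.0163, exact permutation test), on Il10 counts that include 0. With 1 or 0.1 in place of the 0.5 added to each count, it was 1.37 or 2.42 on the log2 scale. Osm over Il1b was 1.29-fold lower (adjusted p = 0.0403, exact permutation test), with all MR24 libraries below all MG24 ones and a fold of 1.03 at 72h, a contrast between times that was not tested. That call was lost on leaving out any of 12 of the 16 libraries, with the highest adjusted p of 0.107 without the third MG72 library. Within 1 time, the exact permutation test cannot give p below 0.0286, and no ratio passed there after adjustment.

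**Figure D3:**
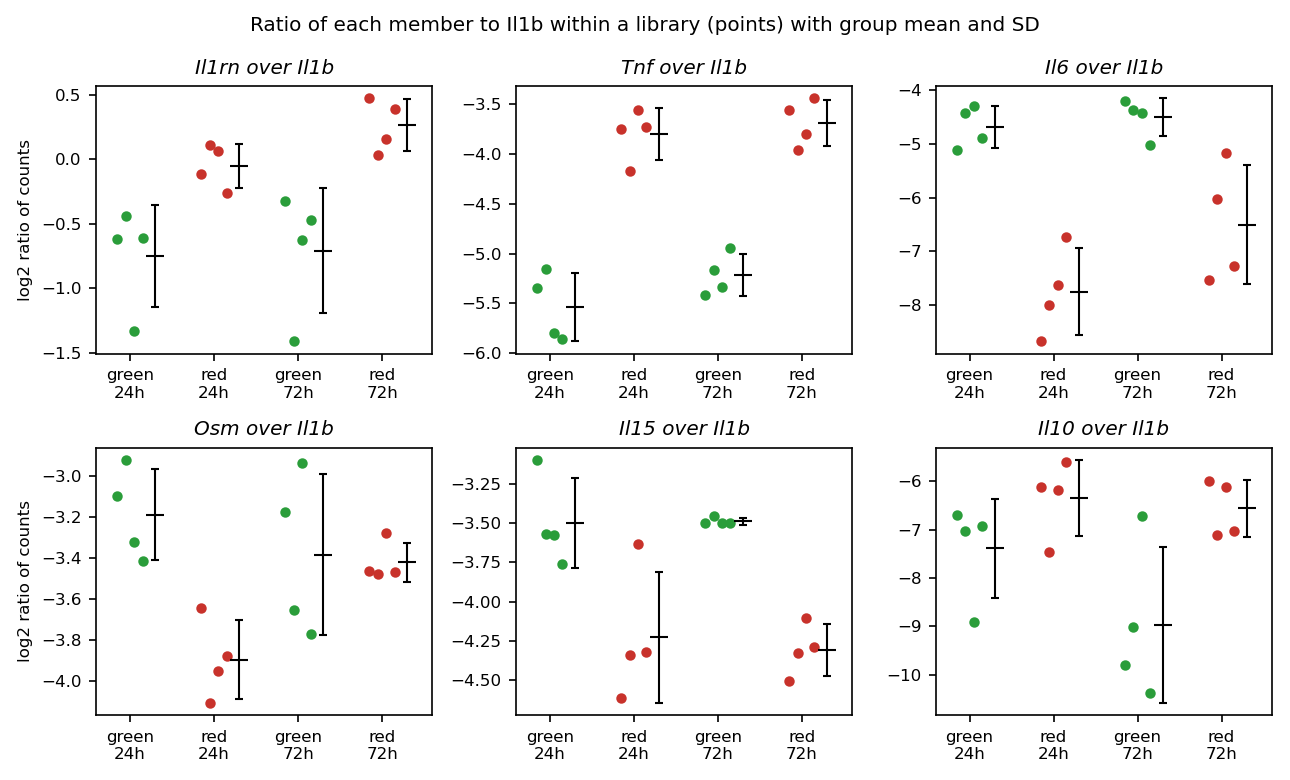
Log2 ratio of counts of 6 members to Il1b within each library (y axis, a separate scale for each ratio), by group, with the group mean and SD (n = 4). Red points lie above green ones for Il1rn and Tnf and below them for Il6, and overlap them for Osm, Il15 and Il10.

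Levels of different genes were set side by side per kilobase of exon, merged over all annotated isoforms of a gene, so their order depends on those lengths. In MG24 the order was Il1b (135 CPM per kilobase), Il1rn (27.7), Osm (12.4), Il15 (10.2), Il6 (4.24), Tnf (3.31), Il10 (1.15) and Il1a (0.394). In MR24 Tnf (5.72) stood above Osm (3.86) and Il15 (3.16), and Il6 (0.260) was the lowest, below Il10 (1.30) and Il1a (0.323). In MR72 Tnf (4.86), Osm (4.27) and Il15 (2.33) kept that order. The SDs of Osm and Tnf in MR72 were 0.728 and 0.157 CPM per kilobase, and the gap between them lies within the first of these.

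Profiles over the 16 libraries were compared by the root mean square difference of standardised log2 CPM, among up to 1391 genes with a mean log2 CPM of at least 4. The Rn45s share and the counts outside it differed between the colours, with some overlap, so nearness is a description. Among the members, Il1b and Il15 were the nearest pair (0.301), followed by Il1b and Osm (0.426) and Il6 and Osm (0.432). Over all genes, Il1b lay nearest to S100a10, Plac8 and Rpl24, and Il15 to Rps23, S100a10 and Plac8. Plac8 is one of the monocyte markers above. Osm lay nearest to Nr4a1, Srgn and Btg2, of which Nr4a1 and Btg2 are immediate early genes. Il6 lay nearest to Gm12657, S100a4 and Tmsb10, and Tnf, at a larger distance, to Snx5, Dab2 and C3ar1. Il1rn (Slc25a3, Cdkn1a, Rhob) and Il10 (Kif5b, Tuba1b, Id2) had no neighbour closer than 0.619.

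Of 34 other cytokine and cytokine inhibitor genes in the tables, 8 had enough counts for a test, and 3 were higher and 2 lower in Kaede-red cells. Beside Il18 and Il18bp, these were Clcf1, a ligand of the gp130 family (-1.40, adjusted p = 0.0194, means of 2.55, 0.876, 1.76 and 0.729 CPM in MG24, MR24, MG72 and MR72), Il16 (0.93, adjusted p = 0.0436) and Il12b (adjusted p = 0.00244). Il12b, which encodes a subunit of IL-12 and IL-23, had means of 0.205 CPM in MG24, 1.41 CPM in MR24, 0 CPM in MG72 and 0.810 CPM in MR72, too low in Kaede-green cells for a fold. It entered the test only through its Kaede-red libraries, so its call rests on the colour in which it was high.

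The 14 genes whose products govern the decay or stability of cytokine mRNA had a median log2 fold change of 0.16 over both times, against 0.06 over all genes. Of these 14, 3 were higher in Kaede-red cells and none lower, where 20.3% of all genes passed in either direction. At 24h 2 were higher and 3 lower, namely Zfp36, Zfp36l2 (-0.76, adjusted p = 0.00911) and Rc3h1 (-0.84, adjusted p = 0.0443). Zfp36l1, a member of the family that binds the ATTTA elements shown above, was higher in every Kaede-red library (1.31, SE 0.19, adjusted p = 4.09e-06), with means of 9.04, 22.4, 10.01 and 25.0 CPM in MG24, MR24, MG72 and MR72. Zc3h12d (1.26, adjusted p = 3.46e-04) and Khsrp (0.60, adjusted p = 0.0124) rose too. Zfp36 itself, the most abundant of the list, was the one whose colour difference changed with time (1.16, adjusted p = 0.0445), from -0.69 at 24h (adjusted p = 0.0216) to 0.47 at 72h (adjusted p = 0.0941). Of 16 transcription factors of cytokine genes, Relb (1.04) and Jun (0.57) were higher and Cebpb (-0.40), Junb (-0.45) and Fos (-0.52) lower. For these 16 the median log2 fold change was 0.09 against 0.06 over all genes, of which 20.3% passed. The NF-κB genes Rela and Nfkb1 did not pass over both times, with values of 0.18 and 0.33, and each passed at 72h (0.75, adjusted p = 0.0415, and 0.70, adjusted p = 0.0256).

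**Figure D4:**
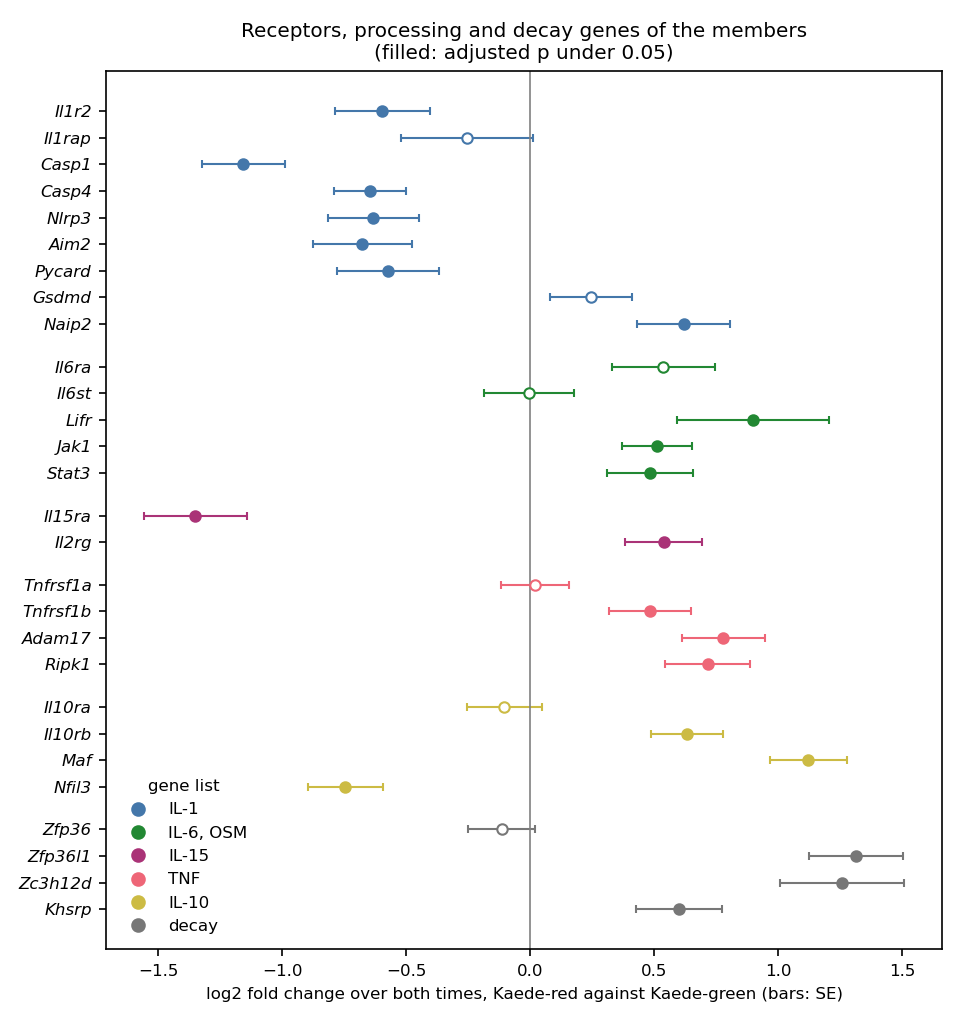
Log2 fold change over both times with SE (x axis) for receptors, processing, release and decay genes around the members, coloured by list, with filled points for an adjusted p under 0.05. Casp1, Casp4, Nlrp3, Aim2, Pycard and Il15ra lie left of 0, and Naip2, Adam17, Maf, Zfp36l1 and Zc3h12d lie right of it.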

How the data were processed

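The deposited values are counts of reads per gene, whole numbers with no normalization, for 24421 genes in 16 libraries. According to the study's methods and the submitters' processing notes, the authors used Trim Galore and FastQC, HISAT2 for alignment to mm10 and featureCounts for counting. Their versions, the annotation and the strand setting are not given in the sources used here. Libraries were made from 5 ng of total RNA with a stranded pico kit, without removal of Rn45s from the counts. The combined table repeats the single files in 16 of 16 columns, and 0 columns were left unused. In the 24 pairs of libraries within groups, chi-square per gene was at least 3.21, so none was a copy.

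Genes kept by filterByExpr (9642) were fitted in edgeR 4.0.16 (R 4.3.3) with TMM factors, 1 mean per group over all 16 libraries and the quasi-likelihood test, with Benjamini-Hochberg adjustment over all genes tested and a threshold of 0.05. Colour was compared at each time and over both, time within colour, and their interaction. The common dispersion was 0.0702. The test recovered known changes in simulated counts, a check of the code that does not show how the test behaves on these libraries. P-values of the fit measure differences against the spread between libraries within groups. Whether Kaede-green and Kaede-red libraries of a time came from the same mice is not stated in the sources used here, and the fit treats them as unpaired. Ratios were log2 of counts plus 0.5, tested by exact permutation. SE is the fold change over the root of the F statistic. Sequences and 3′ untranslated regions came from RefSeq (GRCm38.p6) and from mm10 with GENCODE vM21. No source says that equal replicate numbers pair libraries.

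Named are all members, their receptors, up to 4 further genes per list with the lowest p among those called, the 3 nearest profiles per member and marker genes beside a result; Pycard, Naip2, Gsdmd, Il16, Cebpb, Il2rb, Rela, Nfkb1, Zfp36, Zfp36l2, Rc3h1, Birc2, Tnfaip3, Nfkbia and Socs1 were added after their values were seen. Lists covered IL-1 processing, the receptors and signalling of IL-1, IL-6 and oncostatin M, IL-10, IL-15 and TNF, other cytokines, mRNA decay, transcription factors and 11 sets of cell type markers, of which 1 monocyte marker is not reported here. The members and lists were chosen with earlier results of these data known. Alternatives were RLE factors, library size only, DESeq2 1.42.0, no filter or at least 10 counts in every library, only the groups compared, Rn45s removed or its share as a covariate, blocks for the replicate number, other pseudocounts and leaving out each library.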

Additional observations from a re-analysis of the deposited data

Results flagged for a closer look

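In 5 of 64 cases (the level of each of 8 members and each of 8 ratios, in each of 4 groups) 1 library stood apart from the others of its group, by a gap whose share of the group's range exceeds Dixon's 95% critical value. Chance alone gives about 1 such group in 20. Il1rn in the second MG72 library was at 88.5 CPM against 123 to 130.5 CPM in the others (gap 0.8291 of the range). Osm in the fourth MG24 library was at 20.9 CPM against 30.1 to 31.5 CPM (gap 0.866). The log2 ratio of Osm to Il1b in the third MR72 library was -3.28 against -3.48 to -3.46 (gap 0.927). That of Il15 to Il1b in the second MG72 library was -3.46 against -3.50 in each of the others (gap 0.926), within a group whose 4 libraries lay close together. That of Il10 to Il1b in the third MG24 library was -8.90 against -7.03 to -6.70 (gap 0.849), on 2 counts of Il10. Without the second MG72 library the difference of Il1rn over both times was -0.16 (adjusted p = 0.44), and without the fourth MG24 library that of Osm was -1.39.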

How the results depend on the processing

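Leaving out each library in turn kept 5 called members for both times together and 4 for either time alone, and 0 in the comparisons of time and in the interaction, while 5 to 6 of the ratios passed. With at least 10 counts in every library, which leaves 4 of the members, 3 were called over both times, and 1 for 72h against 24h in red (Il1b, -0.40, adjusted p = 0.0497). With the Rn45s share as a covariate, 2 members were called for both times together, 3 for 24h and 0 for 72h, where 1.62% of all genes were called for both times. Rn45s share and colour go together in these libraries, and the cause was not tested. Scaling by library size only moved the median of all genes by 2.20 over both times and called 96.7% of genes, 99.9% of them higher against 49.5% with TMM. On that scale Il1b was 1.22 for both times together, 1.34 for 24h and 1.11 for 72h. Il1rn was 2.02 for both times and 2.03 for 24h, Osm was 0.84, 0.61 and 1.07, and Il15 was 0.42, 0.54 and 0.31. These reversed values are below or near the shifted median, and relative to it Il1b was -0.98, Osm -1.36 and Il15 -1.78 over both times. DESeq2 called 5 members at 24h and 5 at 72h, with Tnf added. RLE factors, no filter, Rn45s removed (Il10 was then not tested) and a fit of only the groups compared changed no call of a member. The replicate block, over all libraries or within time, gave 5 called members for both times together and 4 for either time alone, so it changed no call, and left 5 of 6 ratios past the threshold (Osm over Il1b, adjusted p = 0.0833). Of the 8 pairs of libraries with the same number, 1 correlated above 0.1 (range -0.0183 to 0.153) and 2 correlated best with their own number, so the numbers were not taken to pair the libraries. Depth limits Il1a and Il10, which had 0 counts in several libraries.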
